A study of Mus musculus with 2 samples.

Results

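SR proteins and hnRNPs are the large families of RNA-binding proteins that act on splice-site choice, and 31 of their genes were described here in mouse hippocampus. The genes were chosen by name alone: protein-coding genes named Srsf with a number (11 SR protein genes) or with a name that starts with Hnrnp (20 hnRNP genes), out of 21951 protein-coding genes with an annotated transcript. A further 2 genes that match the names, Hnrnpa1l2-ps and Hnrnpa1l2-ps2, are not protein-coding and were left out.

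SR proteins carry RNA recognition motifs and a tail rich in arginine and serine, which kinases phosphorylate, and most of them promote the inclusion of exons to which they bind. The hnRNPs coat newly made RNA, and several of them repress nearby splice sites. Many genes of both families are known to limit their own protein by making transcripts with a premature stop codon, which the cell destroys by nonsense-mediated decay (NMD). The best studied of these carry a "poison" exon that holds the stop. Transcripts that keep an intron are another known non-coding output of such genes, and often stay in the nucleus.

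Total RNA was measured in 2 libraries of tissue labelled layer of hippocampus, from female B6CASTF1/J mice (a cross of the C57BL/6 and CAST strains) aged 36 days. There was 1 group and no treatment. Each library was started from 300 ng of RNA with synthetic spike-in RNAs added. The labels number the libraries as biological replicates 1 and 2 from separate tissue samples, but give both the same donor identifier, so an SD over 2 measures only the spread between these samples. In bulk tissue, fewer cells of a type and less RNA per cell cannot be told apart.

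The libraries held 32443493 and 30125178 expected counts with spike-ins. Of the counts in genes alone (32299053 and 30010758) the 31 genes took 0.356% and 0.363%. Markers of neurons (6 of 6), hippocampal subfields (5 of 5), astrocytes (4 of 4), oligodendrocytes (6 of 6) and microglia (4 of 4) were all detected in both libraries. The libraries were not alike in tissue content. Values were called apart when their ratio exceeded 5 to 4. Among choroid plexus markers averaging at least 100 counts, 7 of 7 were above that ratio toward replicate 2, and the 10 listed markers summed to 27.05 TPM in replicate 1 against 1301 TPM in replicate 2. The meninges list had 4 of 4 such genes higher in replicate 2 by this rule, and the oligodendrocyte list had 5 of 6 lower.

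Sequences that carry a premature stop are shown first, because they define the transcripts on which much of the account turns. In 5 transcripts that averaged 5% or more of their gene's level, the stop codon lay in an exon that the gene's reference coding transcript (its most abundant complete coding transcript) skips. Each sequence below runs 5′ to 3′ from the first base of that exon to the end of the stop codon, with the stop in capitals, as annotated in GENCODE M21 on mm10.
Srsf3-201: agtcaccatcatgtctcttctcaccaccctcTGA
Srsf6-201: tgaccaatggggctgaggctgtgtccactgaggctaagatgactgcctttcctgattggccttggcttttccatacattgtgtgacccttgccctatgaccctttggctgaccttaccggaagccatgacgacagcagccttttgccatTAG
Srsf4-203: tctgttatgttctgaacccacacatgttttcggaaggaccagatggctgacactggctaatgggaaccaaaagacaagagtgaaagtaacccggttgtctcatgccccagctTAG
Srsf9-205: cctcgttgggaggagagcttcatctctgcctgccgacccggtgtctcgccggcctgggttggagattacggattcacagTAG
Hnrnpll-203: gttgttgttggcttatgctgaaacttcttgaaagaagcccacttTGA

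These exons lie at chr17:29039454-29039909 (Srsf3), chr2:162932815-162933082 (Srsf6), chr4:131884276-131884482 (Srsf4) and chr5:115328347-115328704 (Srsf9) on the plus strand, and at chr17:80044940-80045022 (Hnrnpll) on the minus strand. The Srsf3 exon is 456 bases long and its stop codon ends at base 34. The Srsf6 exon is 268 bases long and its stop ends at base 152. In Srsf4, Srsf9 and Hnrnpll the exons are 207, 358 and 83 bases long, and the stops end at bases 115, 82 and 47. Downstream of the stop there were 3 further exon junctions in Srsf3-201, 4 each in Srsf6-201, Srsf4-203 and Srsf9-205, and 7 in Hnrnpll-203, the arrangement that NMD is known to recognise.

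All 31 genes were well expressed. Levels are in TPM, a unit scaled to library size and transcript length, so that genes can be compared. All 31 reached 1 TPM in both libraries, against 57.7% of protein-coding genes. All 31 also reached 10 TPM in both libraries, against 35.0% (percent of all protein-coding genes) at that level. In both libraries 19 genes (6 SR and 13 hnRNP) reached 50 TPM, against 8.25% of protein-coding genes, and 9 (1 SR and 8 hnRNP) reached 100 TPM, against 3.42%. The median level was 52.2 TPM ± 2.18 (SD, n = 2) for the SR genes and 69.5 TPM ± 0.806 (SD, n = 2) for the hnRNP genes, and 3.28 TPM ± 0.163 (SD, n = 2) for all protein-coding genes. Summed levels were 643 TPM ± 28.9 (SD, n = 2) for the SR genes and 1886 TPM ± 27.3 (SD, n = 2) for the hnRNP genes.

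**Figure D1:**
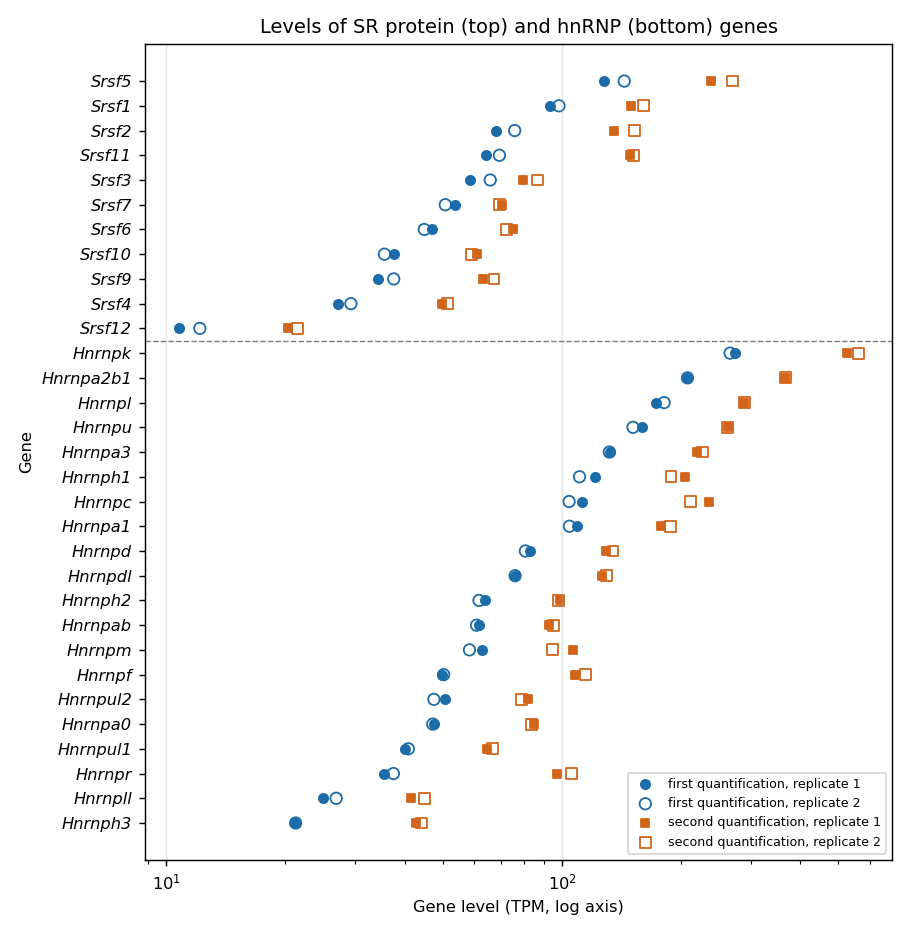
Gene level (TPM, log axis) of the 11 SR protein genes (above the dashed line) and 20 hnRNP genes (below it) in each library, from the first quantification (circles) and the second (squares); filled symbols are replicate 1 and open symbols replicate 2. The 2 libraries lie close together for each gene, from about 10.8 TPM for Srsf12 to 274 TPM for Hnrnpk in replicate 1, and the second quantification gives higher TPM throughout.

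Among the SR genes, Srsf5 stood highest, at 128 TPM in replicate 1 and 144 TPM in replicate 2, and it was the only SR gene above 100 TPM in both. Its close relatives were lower: Srsf6 was at 47.0 and 44.9 TPM, and Srsf4 at 27.2 and 29.3 TPM. The 3 genes encode the longer SR proteins with a pair of RNA recognition motifs and a long arginine-serine tail, and their values did not overlap. Srsf1, the founding member of the family, was at 93.0 and 98.3 TPM, and its relative Srsf9, with a short tail, at 34.3 and 37.6 TPM. Srsf3, the smallest SR protein and an adaptor for mRNA export, was at 58.7 and 65.9 TPM. Srsf7, its relative with a zinc knuckle, was at 53.8 and 50.7 TPM, below Srsf3 in both libraries. Srsf2, which stays in the nucleus, was at 68.1 and 75.9 TPM. Srsf11 was at 64.2 and 69.5 TPM, a range that overlapped those of Srsf2 and Srsf3. Srsf10, a splicing repressor when dephosphorylated, was at 37.6 and 35.6 TPM, and its relative Srsf12 was lowest of the 31, at 10.8 and 12.2 TPM.

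The most abundant gene of both families was Hnrnpk, a KH-domain protein that binds C-rich RNA, at 274 TPM in replicate 1 and 266 TPM in replicate 2. In the A/B group, which binds exonic and intronic silencers, Hnrnpa2b1 was at 207 and 208 TPM. Hnrnpa3 was at 132 TPM in each library and Hnrnpa1 at 109 and 104 TPM. Hnrnpa0, a gene with a single annotated transcript, was at 47.6 and 47.2 TPM. The A/B order (Hnrnpa2b1, Hnrnpa3, Hnrnpa1, Hnrnpa0) was the same in both libraries with no overlap.

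In the group that binds AU-rich RNA, Hnrnpd (also called AUF1) was at 83.1 and 80.8 TPM, Hnrnpdl at 76.2 and 76.1 TPM and Hnrnpab at 61.7 and 60.8 TPM. In the G-run-binding F/H group, Hnrnph1 was at 121 and 111 TPM and Hnrnph2, its X-linked relative, at 63.9 and 61.7 TPM. Hnrnpf was at 49.8 and 50.2 TPM and Hnrnph3 at 21.2 TPM in each library. Hnrnpl, which binds CA repeats, was at 172 and 181 TPM, far above its relative Hnrnpll at 25.0 and 26.9 TPM.

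Hnrnpu, also called SAF-A, a protein of the nuclear scaffold, was at 159 and 151 TPM. Its relatives Hnrnpul2 (50.6 and 47.5 TPM) and Hnrnpul1 (40.2 and 40.9 TPM) were lower in both libraries. Hnrnpc, which binds U-tracts and keeps cryptic exons out of mRNA, was at 112 and 104 TPM. Hnrnpm was at 62.9 and 58.4 TPM, and Hnrnpr at 35.5 and 37.5 TPM. The order of these 6 genes was the same in both libraries, and no neighbours in it overlapped.

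The annotated type of the transcripts divided these genes further. The share of a transcript in its gene's TPM (IsoPct) was summed by annotated type. The median coding share was 53.8% ± 2.68 (SD, n = 2) over the SR genes and 73.7% ± 0.234 (SD, n = 2) over the hnRNP genes, and 89.1% ± 0.696 (SD, n = 2) over the 11846 protein-coding genes that averaged at least 100 counts. Coding transcripts were under 50% in 7 of 31 genes, against 9.34% of those protein-coding genes: Srsf3, Srsf5, Srsf6, Srsf9, Srsf11, Hnrnph1 and Hnrnpu. Retained-intron transcripts took 10% or more in 13 genes (7 SR and 6 hnRNP), against 32.1%. NMD transcripts took 10% or more in 11 genes (5 SR and 6 hnRNP), against 9.87%. The leading transcript, the one with the highest mean share, was not coding in 3 genes (Srsf5, Srsf9 and Hnrnpu), against 6.88%. The annotation differs too. NMD transcripts are annotated for 19 of the 31 genes, against 28.9% of those protein-coding genes, and among genes that have one annotated 11 of 19 reached 10%, against 34.1%. For retained introns 22 of 31 genes have one annotated, against 59.3%, and 13 of those 22 reached 10%, against 54.2%.

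**Figure D2:**
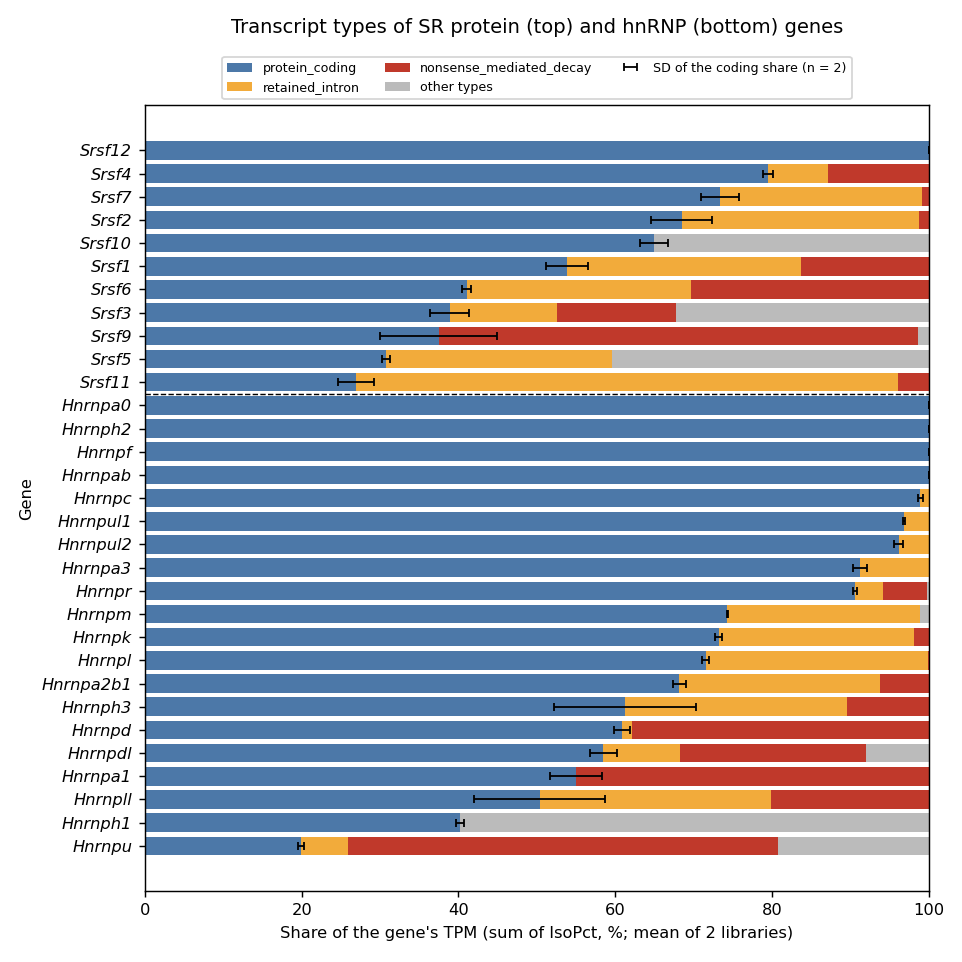
Share of each gene's TPM (sum of IsoPct, percent, mean of 2 libraries) in protein_coding, retained_intron, nonsense_mediated_decay and other transcripts, for 11 SR genes (above the dashed line) and 20 hnRNP genes (below it), ordered by coding share; bars on the coding share are ± SD (n = 2). The SR genes run from 100% coding (Srsf12) to 26.9% (Srsf11), and Hnrnpu is lowest of the hnRNP genes at 19.9%; the 5 genes at 100% have no other type annotated.

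For 5 genes (Srsf12, Hnrnpa0, Hnrnpab, Hnrnpf and Hnrnph2) the annotation holds coding transcripts alone, so their share is 100% by construction and measures nothing about their output. Among genes with a non-coding transcript annotated, Hnrnpc (98.9% ± 0.346, SD, n = 2), Hnrnpul1 (96.8% ± 0.17, SD, n = 2) and Hnrnpul2 (96.1% ± 0.559, SD, n = 2) had the highest coding shares, each with retained-intron transcripts as the annotated alternative.

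Srsf6 (chr2:162931528-162937121) was split over 3 transcripts. The coding transcript Srsf6-203 took 41.5% of its TPM in replicate 1 and 40.6% in replicate 2, the stop-exon transcript Srsf6-201 took 31.1% and 29.5%, and Srsf6-204, which keeps intron 2, took 27.4% and 29.9%. In both libraries the coding transcript was highest, and the other two overlapped each other. The intron that Srsf6-204 keeps is 1283 bases long and holds the whole stop exon printed above. As a share of expected counts the NMD transcript of Srsf6 took 17.7%, against 30.3% of TPM.

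Srsf3 (chr17:29032628-29043373) had the same pair of forms at lower shares. Srsf3-202, which codes for the protein, took 40.6% and 37.1%, the stop-exon transcript Srsf3-201 took 16.5% and 13.9%, and Srsf3-204, which keeps introns 3 and 4, took 8.84% and 8.49%. A short transcript typed processed_transcript, Srsf3-209, took 26.2% and 28.0%. The NMD share of Srsf3, 15.2% on average, was 28.1% in the second quantification, and its retained-intron share of 13.7% was 21.6% there and 23.6% of expected counts. In its relative Srsf7 the intron-retaining transcript Srsf7-206 was at 20.8% and 23.2%, whereas the stop-exon transcript Srsf7-203 was at 0.57% and 1.16%. The 3 retained introns that hold a stop exon (Srsf3 intron 3, Srsf6 intron 2 and Srsf7 intron 3) are shown by their boundaries, with exon bases in lower case and intron bases in capitals, first the 5′ and then the 3′ splice site.
Srsf3 intron 3, 5′ splice site: cagGTACTT
Srsf3 intron 3, 3′ splice site: TTTACTGTTTCTGCTTCTAGatc
Srsf6 intron 2, 5′ splice site: gcaGTGAGT
Srsf6 intron 2, 3′ splice site: ACTCCCTTCATGTGATAAAGgtg
Srsf7 intron 3, 5′ splice site: cagGTATTT
Srsf7 intron 3, 3′ splice site: TTTTCTAACTTAAAAAATAGgtc

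These introns lie at chr17:29038625-29040774 (2150 bases), chr2:162932143-162933425 (1283 bases) and, on the minus strand, chr17:80204388-80205261 (874 bases). Each starts with GT and ends with AG. Of the 25 retained-intron transcripts at 5% or more, 10 (in 9 genes) keep at least 1 whole intron of the reference coding transcript, and all 11 introns so kept are GT-AG. The other 15 keep no whole reference intron, so for these the label is the annotation's alone. The share of GT-AG among the introns that are not kept was not counted.

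**Figure D3:**
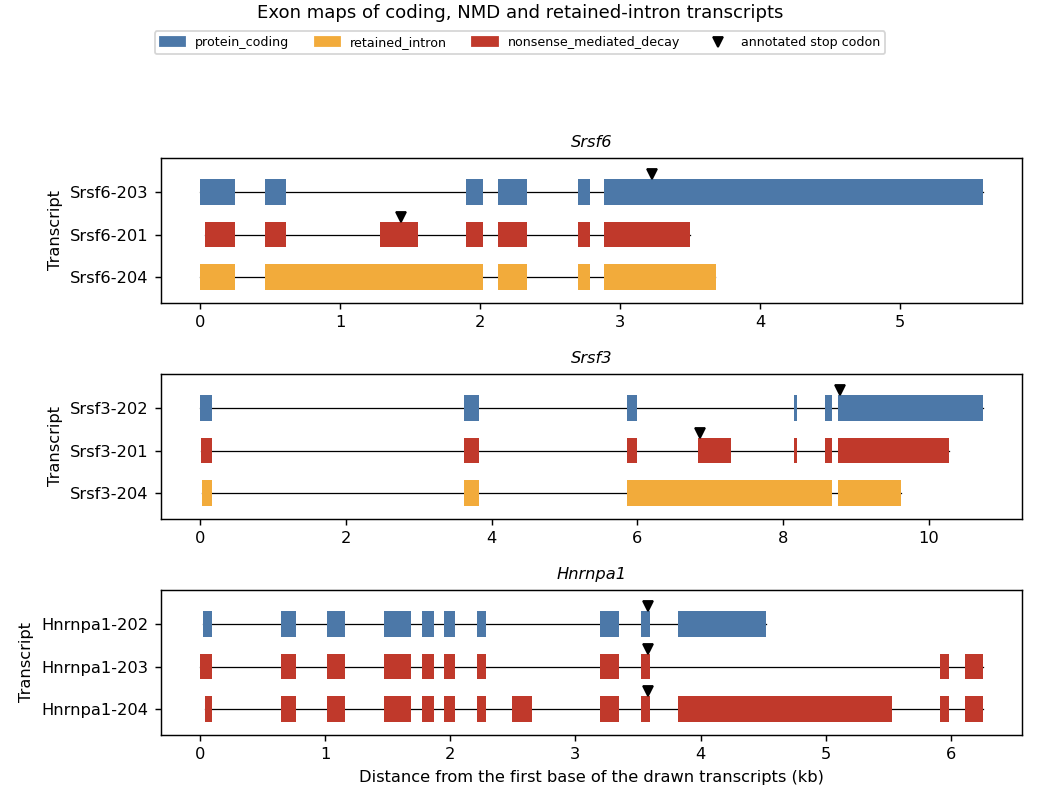
Exons (boxes) of the reference coding, NMD and retained-intron transcripts of Srsf6, Srsf3 and Hnrnpa1, drawn to scale in kb from the first base of the drawn transcripts; triangles mark annotated stop codons. In Srsf6 and Srsf3 the NMD transcript has 1 added exon with an early stop, inside the stretch that the retained-intron transcript keeps, while the Hnrnpa1 NMD transcripts keep the coding stop and add exons after it.

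Srsf9 (chr5:115327177-115333080) had the highest NMD share of the 31 genes. The stop-exon transcript Srsf9-205 led it, with 67.3% in replicate 1 and 55.1% in replicate 2, or 23.1 and 20.7 TPM. The coding transcript Srsf9-201 took 32.2% and 41.0%, and was the lower of the pair in both libraries. The annotation marks Srsf9-205 as incomplete at an end. Its paralogue Srsf1 was 53.8% ± 2.68 (SD, n = 2) coding, 29.9% ± 0.73 (SD, n = 2) retained-intron and 16.3% ± 3.41 (SD, n = 2) NMD. As shares of expected counts, not scaled to length, the same types of Srsf1 were 84.1%, 9.19% and 6.72%. Srsf1-206 and Srsf1-203, its retained-intron transcripts, took 15.4% and 17.1%, and 15.0% and 12.3%, in replicates 1 and 2. Neither keeps a whole intron of the reference coding transcript.

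Srsf11 (chr3:158010473-158036639) had the highest retained-intron share, 68.2% in replicate 1 and 70.2% in replicate 2, spread over several of its 19 annotated transcripts. Its leading transcript differed between the libraries, the only such case among the 31 genes, against 8.86% of protein-coding genes. Replicate 1 was led by the retained-intron transcript Srsf11-208 (22.8%, with 22.4% for the coding Srsf11-202) and replicate 2 by Srsf11-202 (20.1%, with 19.0% for Srsf11-208). The pair thus stood at nearly the same level in each library. The second quantification was led by another retained-intron transcript, Srsf11-211.

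Srsf5 (chr12:80945504-80950507), the most abundant SR gene, was 31.1% and 30.4% coding. Its leading transcript was Srsf5-206, typed processed_transcript, at 34.4% and 38.9%, followed by Srsf5-212, which keeps the 1229-base intron 5, at 27.0% and 24.3%. The coding Srsf5-205 took 19.1% and 21.5%. The retained-intron share of Srsf5 was 28.9% of TPM and 50.8% of expected counts. No NMD transcript of Srsf5 was above 0 in this quantification. Srsf2 had 1 main retained-intron transcript, Srsf2-203, at 28.5% and 32.0%, or 19.4 and 24.3 TPM, and the 1059-base intron it keeps lies after the coding stop. The coding Srsf2-201 took 62.0% and 53.9%. Srsf4, the third of the relatives Srsf4, Srsf5 and Srsf6, was 79.0% and 79.9% coding. Its stop-exon transcript Srsf4-203 took 6.28% and 4.69%, or 1.70 and 1.37 TPM, with a lower bound under 1 TPM in each library.

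The NMD transcripts were sorted by where their stop codon lies. Of the 18 at 5% or more, in 13 genes, 6 keep the stop codon of the coding transcript and add an exon junction after it, and these 6 belong to hnRNP genes: 2 each to Hnrnpa1 and Hnrnpd, and 1 each to Hnrnpa2b1 and Hnrnpdl. The 5 with a stop in an added exon belong to 4 SR genes and to Hnrnpll. The remaining 7, in 6 genes (2 transcripts of SR and 5 of hnRNP genes), have neither arrangement. The first arrangement is not confined to hnRNP genes: Srsf2-204 and Srsf2-202, both under 5%, also keep the coding stop. The difference between the families was not tested. For 13 of the 18 the authors' lower bound on the TPM was above 1 TPM in both libraries.

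Hnrnpa1 (chr15:103240432-103246692) was 57.3% and 52.6% coding. Hnrnpa1-203 took 30.4% and 33.8% and Hnrnpa1-204 took 12.3% and 13.5%, and both add exons downstream of the coding stop. These NMD transcripts amounted to 33.1 and 35.3 TPM, and 13.3 and 14.1 TPM. The coding Hnrnpa1-202 was higher than either, at 62.4 and 54.4 TPM. Hnrnpa2b1, its closest abundant relative, was 68.2% ± 0.825 (SD, n = 2) coding and 6.18% ± 2.19 (SD, n = 2) NMD, or 9.39% NMD in the second quantification. The 2 NMD shares came from different transcripts. Hnrnpa2b1-209 was at 16.0 and 9.61 TPM in the first quantification and at 0 in the second. Hnrnpa2b1-207 was at 0 in the first and at 23.2 and 45.6 TPM in the second. The lower bound of Hnrnpa2b1-209 was under 1 TPM in replicate 2.

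Hnrnpd (chr5:99955935-99978938) had 37.4% and 38.2% of its TPM in NMD transcripts, led by Hnrnpd-208 (18.6% and 20.5%) and Hnrnpd-204 (14.8% and 12.1%). Both share an added 107-base exon after the coding stop, and both are marked incomplete at an end. The most abundant coding transcript, Hnrnpd-210 (34.1% and 30.8%), is a 493-base incomplete model, so its own share is less certain than that of the complete Hnrnpd-211 (15.4% and 16.2%). The mean NMD share of 37.8% was 20.6% in the second quantification and 19.1% as a share of expected counts.

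Hnrnpu (chr1:178321108-178337797) had the lowest coding share of TPM among the 31. The coding Hnrnpu-201 took 19.7% and 20.2%, or 31.3 and 30.5 TPM. Hnrnpu-206, annotated as NMD, led it at 44.8% and 49.0%, or 71.1 and 74.1 TPM, and the processed_transcript Hnrnpu-203 added 12.6% and 12.9%. This share depends on transcript length: Hnrnpu-201 is 7640 bases long and Hnrnpu-206 is 2844, and as a share of expected counts, which are not scaled to length, the coding transcripts took 48.3%. Hnrnph1 (chr11:50376990-50386528) was 39.8% and 40.5% coding, and the annotation holds no NMD or retained-intron transcript for it. The other 59.8% was in transcripts of other types, led by the processed_transcript models Hnrnph1-218 (16.4% and 16.5%), Hnrnph1-207 (11.4% and 14.3%) and Hnrnph1-205 (9.58% and 11.6%).

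In 3 genes a type share differed by over 10 percentage points between the libraries, against 12.2% of protein-coding genes. The Srsf9 NMD share was 12.2 points lower in replicate 2. In the second quantification it was 56.1% in replicate 1 and 44.7% in replicate 2. In Hnrnph3 the coding share was 54.8% in replicate 1 and 67.7% in replicate 2, and the NMD share 15.7% and 5.29%, from 718 and 652 counts for the gene. The second quantification gave Hnrnph3 an NMD share of 45.1% and 41.2%, far higher and with little difference between the libraries. In Hnrnpll, a relative of Hnrnpl, the coding share was 56.3% and 44.4%, and the stop-exon transcript Hnrnpll-203 took 15.8% and 24.6%. The second quantification put the libraries closer, with 43.4% and 38.8% coding and 26.7% and 29.9% NMD. The retained-intron share of Hnrnpll was 28.0% and 30.9%. The directions were not shared among the 3 genes: coding was higher in replicate 2 in Srsf9 and Hnrnph3 and lower in Hnrnpll. The choroid plexus, meninges and oligodendrocyte markers also differed between the libraries, and their part in these differences was not tested.

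Gene levels hardly differed between the libraries. The log2 ratio of replicate 2 to replicate 1 (TMM-scaled counts, 1 library on each side and so no test) ran from -0.12 for Hnrnpc to 0.13 for Srsf4. None of the 31 genes exceeded the ratio of 5 to 4, against 6.24% of all genes averaging at least 100 counts (4.43% higher and 1.8% lower in replicate 2). The ratio was above 0 for 13 genes (6 of 11 SR and 7 of 20 hnRNP), against 44.5%. With spike-in scaling the median of all genes moved up by 0.267, and 8 of the 31 genes exceeded 5 to 4. The share of all genes past 5 to 4 with this scaling was not counted. All 31 ratios were then above 0, as were 11506 of the 11846 protein-coding genes averaging at least 100 counts.

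The 2 deposited quantifications did not place every gene alike. The coding share differed by over 10 points between them in 7 of 31 genes, against 25.2% of protein-coding genes: Srsf2, Srsf7, Srsf9, Hnrnpa2b1, Hnrnpd, Hnrnph3 and Hnrnpr. The leading transcript differed in 12 genes (2 SR and 10 hnRNP), against 21.6%, and in 9 of the 12 both leading transcripts had the same type. All 7 genes with a coding share under 50% were also under 50% in the second quantification, which added Srsf2 (48.9%), Hnrnph3 (40.1%) and Hnrnpll (41.1%). As shares of expected counts, 5 of the 7 remained under 50%, with Srsf3 at 50.4% and Srsf6 at 52.4%. When transcripts marked incomplete at an end were not counted as coding, 12 genes were under 50%. Of those added, Srsf12 went from 100% to 41.3% and Hnrnpk from 73.2% to 32.3%. The share of all protein-coding genes under 50% was not counted in these other settings, so their counts have no background beside them.

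**Figure D4:**
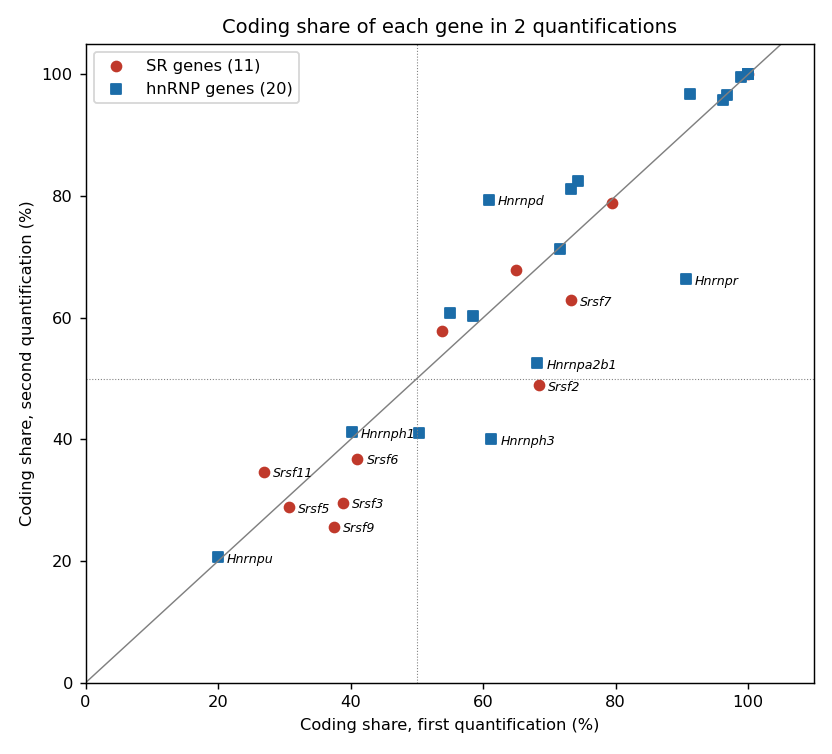
Coding share of each gene (percent of its TPM, mean of 2 libraries) in the first quantification (x axis) and the second (y axis), for SR genes (circles) and hnRNP genes (squares); the line marks equal shares, dotted lines mark 50%, and genes are named where the quantifications differ by over 10 points or the first gives under 50%. All 7 genes under 50% in the first are under it in the second, and Hnrnph3, Hnrnpr, Srsf2, Hnrnpa2b1 and Hnrnpd lie farthest from the line.

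Some gene counts carry further doubt. In 13 genes (3 SR and 10 hnRNP) the expected count was not whole in at least 1 library (by over 0.005 of a count), against 16.7% of genes, which happens when reads also match another gene. They include Hnrnpa1, Hnrnpa3, Hnrnpc, Hnrnpf and Hnrnpk. In 12 genes the gene overlaps one on the opposite strand (for instance Hnrnpu with Cox20, and Srsf2 with Mettl23 and Mfsd11), and whether counting used strand is not given in the sources used here. In 6 genes it overlaps another on the same strand, as Hnrnpk does with Mir7-1. The shares of all genes with such overlaps were not counted.

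Genes that act with these families were expressed in both libraries. All 7 kinases listed, which phosphorylate the arginine-serine tails, reached 1 TPM, with a median of 33.1 TPM ± 0.346 (SD, n = 2), led by Clk1 (69.2 TPM), Srpk2 (59.6 TPM) and Clk4 (50.4 TPM). The coding share was under 50% in all 6 that averaged at least 100 counts, against the same 9.34%. Clk1 was lowest at 7.2%, with 46.1% in retained-intron and 34.7% in NMD transcripts. The 18 SR-related genes had a median of 36.3 TPM ± 0.297 (SD, n = 2), led by Srrm2 (232 TPM), Rsrp1 (108 TPM) and Son (99.5 TPM). Of these 18, 3 were under 50% coding (Acin1, Luc7l2 and Srek1, named after their values were seen), against the same 9.34%.

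The 9 hnRNP proteins under other names had a median of 29.3 TPM ± 1.34 (SD, n = 2), among them Pcbp2 (178 TPM) and Tardbp (84.0 TPM). Of these, 0 of 9 were under 50% coding, against the same 9.34% of protein-coding genes. The 15 NMD factors had a median of 18.6 TPM ± 0.955 (SD, n = 2), among them Smg1 (35.5 TPM) and Eif4a3 (33.1 TPM). Their median coding share was 89.1%, with 1 of 14 under 50% (Smg9, named after its value was seen), against 9.34%. Of the 3 import receptors, Tnpo2 was at 52.9 TPM, Tnpo3, which carries SR proteins into the nucleus, at 28.0 TPM and Tnpo1, which carries hnRNP A1, at 25.1 TPM. The 10 core splice-site factors had a median of 57.5 TPM ± 0.385 (SD, n = 2), led by Snrpn (342 TPM), Snrnp70 (151 TPM) and Sf1 (76.0 TPM). Snrnp70 alone of these 10 was under 50% coding, again against 9.34%. It was at 39.2%, with 59.0% in retained-intron transcripts. Over these 6 lists, no gene averaging at least 100 counts exceeded 5 to 4 between the libraries.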

How the data were processed

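Total RNA from 2 hippocampal tissue samples was sequenced. Per the file headers and the list of files deposited with each sample, the authors quantified reads on mm10 with GENCODE M21 in 2 ways. The first, from an alignment to the transcriptome, gives deposited expected counts, TPM, and IsoPct, the percent of a gene's TPM in each transcript, with lower and upper bounds on TPM. The second, made from the reads directly, gives the authors' estimated counts and TPM per transcript. The software is not given in the sources used here; column names are those that RSEM and kallisto write. No replicates were pooled.

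The genes were taken by the name rule alone. That rule and the lists were set with earlier results of these data known. IsoPct was summed by transcript type over genes averaging at least 100 counts, and medians are means of the 2 libraries' medians. Counts were rounded and scaled by TMM (edgeR 4.0.16) with a prior count of 0.5, with DESeq2 1.42.0 size factors, total counts and spike-ins as alternatives. Scaling was tested on simulated data with 200 changed genes. A difference between libraries over a ratio of 5 to 4 is a rule of size, not a test. Every gene's level is named. Transcripts are named for genes under 50% coding, with a non-coding or inconstant leading transcript or a type share over 10 points apart, and for the 5 highest in each type share. In other lists the 3 highest are named, except that some are not reported here. Exons were compared with the most abundant complete coding transcript, and sequences were read from the GENCODE M21 transcripts. Python 3.11.15 and pandas 2.3.3 were used.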

Additional observations from a re-analysis of the deposited data

How the results depend on the processing

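With 1 group and 2 libraries, every value is a description. No paired analysis was possible because the series has a single group. Of 58 recalculations of the main values, 40 were labelled unchanged and 18 changed. The rule was the spread between libraries or, for counts, a factor of 1.5. The median log2 ratio, also among the 58, is not a count and has no such spread. Its labels do not follow this rule, so only its values, given below, should be read. Some of the 40 could not have come out otherwise. With 2 libraries, leaving 1 out moves a mean by less than the SD. All 31 genes passed the minimum count and none exceeded 5 to 4, so dropping that minimum or raising the ratio could change nothing. No direction was called, so none could be reversed. The median log2 ratio, given below, changed sign with total counts and with spike-ins. With the second quantification the median level was 73.8 TPM for SR and 119 TPM for hnRNP genes, and the median coding and retained-intron shares were 66.4% and 9.27%. As shares of expected counts these 2 shares were 81.1% and 2.97%. The retained-intron median was 8.21% with a minimum mean count of 1000 and 24.6% over genes with such a transcript annotated; the NMD median was 13.1% over genes with one annotated and 2.31% with posterior-mean IsoPct. The coding median was 61.5% when only complete coding transcripts counted, and 66.6% without genes that share reads. Counting only complete coding transcripts put 12 genes under 50%, with no count over all protein-coding genes beside it. The last 3 settings, posterior means, complete transcripts and shared reads, were chosen after seeing the data. The median log2 ratio between libraries was -0.014, and -0.030 with DESeq2 size factors, 0.018 with total counts, 0.25 with spike-ins and -0.022 with the second quantification. With spike-ins 8 genes exceeded a ratio of 5 to 4, against 0 with TMM, and the share of all genes was not counted. Without 1 library in turn, the median level ranged from 50.7 to 53.8 TPM (SR) and from 68.9 to 70.0 TPM (hnRNP). The retained-intron, NMD and coding medians then ranged from 7.46 to 7.83%, 0.57 to 1.67% and 68.8 to 71.2%, and 7 to 8 genes were under 50% coding. The depth limits transcripts of Srsf9, Hnrnph3 and Srsf12 most, with under 1000 counts per gene and library.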

Other observations

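Stop exons were also annotated in genes where their transcripts were rare. In Srsf11, the transcripts Srsf11-206 and Srsf11-210 share a 109-base exon whose stop codon ends at base 23, and Srsf11-212 has a stop in a 117-base exon. Srsf11-206 took 1.41% and 3.25% of the gene's TPM in replicates 1 and 2, and Srsf11-212 took 1.35% and 1.22%. The second quantification gave Srsf11-206 8.98 and 10.2 TPM, where the first gave 0.91 and 2.26 TPM. Hnrnpl-213, whose 70-base exon holds a stop, was at 0 TPM in replicate 1 and 0.63 TPM in replicate 2 in the first quantification, and at 0.537 and 13.6 TPM in the second.

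Transcripts annotated to keep short introns also took a share, which depended on the measure. Hnrnpa3-205 keeps the 78-base intron 3 of Hnrnpa3 and took 9.38% and 8.18% of the gene's TPM. The retained-intron share of Hnrnpa3, all of it in this transcript, was 3.19% in the second quantification and 1.65% of expected counts. Hnrnpa2b1-208 keeps the 156-base last intron of Hnrnpa2b1, which lies after the coding stop, and took 8.96% and 10.6%. Hnrnph3-206 keeps the 430-base intron 4 of Hnrnph3 and took 20.3% and 16.9%. Over all its retained-intron transcripts, Hnrnpa2b1 was at 25.6% of TPM, 38.1% in the second quantification and 24.2% of expected counts. For Hnrnph3 the same shares were 28.2%, 16.8% and 13.1%.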
